A study of Rattus norvegicus with 24 samples.

Results

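Astrocytes were followed through 7 genes that define their identity or carry out their uptake of glutamate, measured by bulk RNA sequencing in the medial prefrontal cortex of young rats. The genes were chosen by name with no measured value in the rule, but earlier results of these data were known. The genes are Gfap (ENSRNOG00000002919), Aqp4 (ENSRNOG00000016043), Slc1a2 (ENSRNOG00000005479), Slc1a3 (ENSRNOG00000016163), S100b (ENSRNOG00000001295), Gja1 (ENSRNOG00000000805) and Glul (ENSRNOG00000049560). They are 7 of the 32883 gene IDs in each table, and all 7 were among the 14930 genes that passed the filter on low counts. The animals were Sprague Dawley offspring at postnatal day 45, of either sex, born after induction of labour with oxytocin or after saline as its control. By title there are 4 groups, each of 6 libraries (24 in all): oxytocin males, saline males, oxytocin females and saline females. The design text speaks of separate animals but names no litter, dam, dose or batch, so littermates would count as independent. The p-values below rest on the spread between these libraries and could be too small if littermates were among them.

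Astrocytes clear glutamate that neurons release. The transporters GLT-1 (Slc1a2) and GLAST (Slc1a3) bring it into the cell, and glutamine synthetase (Glul) turns it into glutamine, which is handed back to neurons. The other genes mark the cell and its connections: Gfap encodes an intermediate filament that rises in reactive astrocytes, S100b a calcium-binding protein, Gja1 the gap junction protein connexin 43, and Aqp4 the water channel of the endfeet on blood vessels. Cortical grey matter astrocytes are known for low Gfap and high transporter expression, while those at the surface and in white matter carry more Gfap.

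The libraries held 15.9 to 24.3 M estimated reads, and each of the 7 genes had at least 2376 reads in every library. The sex and treatment carried in the names of the deposited tables were the opposite of the labels in 24 of 24 libraries, so groups are given as labelled. If those names were right, the directions between treatments and between sexes below would turn, each labelled sex would take the other's treatment difference, and the interaction would keep its sign. One library stood apart for these genes. Saline female 5 was far above the other 5 saline females for Gfap, Aqp4 and Gja1. By the same measure of distance it was far above its group for 297 of 14930 tested genes (1.99%), where the other 23 libraries had 46 to 136 such genes. Several results that moved when it was left out are given with and without it. Gene names are not in the tables, so markers of neurons, oligodendrocytes, microglia and vessels could not be measured beside these genes. In bulk tissue, fewer astrocytes and less RNA per astrocyte cannot be told apart.

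All 7 genes were abundant. On the deposited TPM scale, which counts reads per length of the gene model, S100b averaged 970 ± 69.4 TPM (SD, n = 24) and Glul 955 ± 69.5 TPM. These were followed by Slc1a2 at 459 ± 108 TPM and Slc1a3 at 218 ± 17.8 TPM. Gfap stood at 191 ± 58.0 TPM, Gja1 at 152 ± 16.3 TPM and Aqp4 at 120 ± 19.5 TPM. Even Aqp4, the lowest, was above 91.4% of tested genes. S100b and Glul could not be ordered, since S100b was the higher of these in 13 of 24 libraries. Glul exceeded Slc1a2, and Slc1a2 exceeded Slc1a3, in 24 of 24 libraries. Slc1a3 exceeded Gfap in 21 of 24, Gfap exceeded Gja1 in 21 of 24, and Gja1 exceeded Aqp4 in 24 of 24. The level of Slc1a2 rests on a deposited gene length of 882 bases in every library, the shortest of the 7 (the others were 1484 to 4971 bases), so its place in this order depends on that model. Together the 7 genes made up 0.265% to 0.370% of a library's TPM, lowest in oxytocin female 6 and highest in saline female 5.

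**Figure D1:**
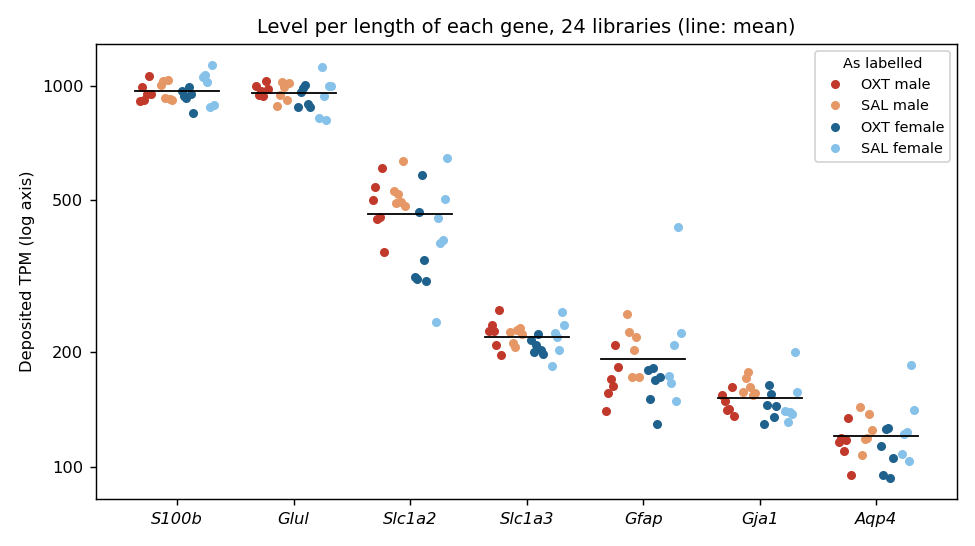
Deposited TPM (log axis) of the 7 genes in the 24 libraries, coloured by labelled group, with a line at the mean of all libraries. S100b and Glul lie together at the top, Slc1a2 spreads from 240 to 644 TPM, and the single high Gfap point at 425 TPM is saline female 5.

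The genes differed in how much they varied between animals of 1 group. The within-group SD of log2 CPM (estimated reads relative to library size, scaled by TMM) was 0.31 for Gfap and 0.31 for Slc1a2, above that of 81.0% and 81.1% of tested genes. Without saline female 5 it was 0.19 for Gfap, above 65.0% of tested genes, and 0.31 for Slc1a2, above 82.0%. This repeat was chosen after the data were seen. Over all 24 libraries the SD was 0.20 for Aqp4, 0.14 for Gja1, 0.12 for S100b, 0.11 for Glul and 0.11 for Slc1a3. The median of all tested genes was 0.14. With saline female 5 left out, the SD was 0.16 for Aqp4 and 0.10 for Gja1, above 56.4% and 31.1% of tested genes. Of the 2 transporter genes, Slc1a2 was among the more variable genes of this tissue and Slc1a3 was below the median. All values of Slc1a2 rest on reads assigned to its 882-base gene model.

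Slc1a2, the main glutamate transporter of mature astrocytes, ranged in oxytocin males from 175 to 289 CPM (median 221, n = 6) and in saline males from 227 to 276 CPM (median 243). In oxytocin females it ranged from 142 to 270 CPM (median 157) and in saline females from 121 to 288 CPM (median 203). Labelled females held both very low libraries and libraries near the highest male, so all 4 groups overlapped. Slc1a3, the transporter also carried by immature and radial glia, was tight by comparison. It lay between 438 and 583 CPM in oxytocin males (median 509), 469 and 539 CPM in saline males (median 493), 438 and 490 CPM in oxytocin females (median 464) and 444 and 564 CPM in saline females (median 492). Again every group overlapped every other. The ratio of Slc1a2 to Slc1a3 within a library, on the log2 TPM scale, ran from 0.90 to 1.23 in oxytocin males, 1.12 to 1.46 in saline males, 0.56 to 1.39 in oxytocin females and 0.38 to 1.45 in saline females (n = 6 each). The ratio was above 0 in every library and more spread in labelled females. Its height depends on the deposited length of 882 bases for Slc1a2.

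Glul, the enzyme that amidates the imported glutamate, was at 1393 ± 60.6 CPM in oxytocin males, 1375 ± 121 CPM in saline males, 1335 ± 71.5 CPM in oxytocin females and 1363 ± 147 CPM in saline females (SD, n = 6 each). Its 4 medians, 1394, 1373, 1339 and 1335 CPM in that order, differed by less than the SD of any group. The log2 ratio of Glul to Slc1a3 TPM was correspondingly even, at 2.13 ± 0.11 over all libraries (SD, n = 24), while that of Glul to Slc1a2 was 1.10 ± 0.32.

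Gfap, the filament gene, ranged from 234 to 351 CPM in oxytocin males (median 281, n = 6) and from 292 to 426 CPM in saline males (median 340). In oxytocin females it ranged from 225 to 302 CPM (median 286). In saline females 5 libraries lay between 259 and 365 CPM and saline female 5 at 711 CPM (median of 6, 326). Saline medians were the higher in both labelled sexes, and the ranges overlapped in both. Aqp4, the endfoot water channel, showed a like shape: medians were 301 and 321 CPM in oxytocin and saline males, and 283 and 320 CPM in oxytocin and saline females. Its range was 237 to 351 CPM in oxytocin males, 269 to 373 CPM in saline males and 251 to 325 CPM in oxytocin females. Among saline females 5 libraries lay between 283 and 341 CPM, with saline female 5 at 475 CPM.

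Gja1, the connexin that couples astrocytes into a network, had medians of 245 CPM in oxytocin males and 273 CPM in saline males, with ranges of 219 to 275 and 242 to 299 CPM. In females both medians were 247 CPM. Oxytocin females ranged from 222 to 271 CPM, 5 saline females from 226 to 258 CPM, and saline female 5 stood at 335 CPM. S100b, a soluble calcium-binding protein that oligodendrocytes also make, ranged from 769 to 917 CPM in oxytocin males (median 812), 731 to 896 CPM in saline males (median 843), 716 to 834 CPM in oxytocin females (median 816) and 723 to 963 CPM in saline females (median 889). Saline medians were above oxytocin medians in both labelled sexes, within overlapping ranges. Saline female 5, at 950 CPM, was not apart from its group for S100b.

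**Figure D2:**
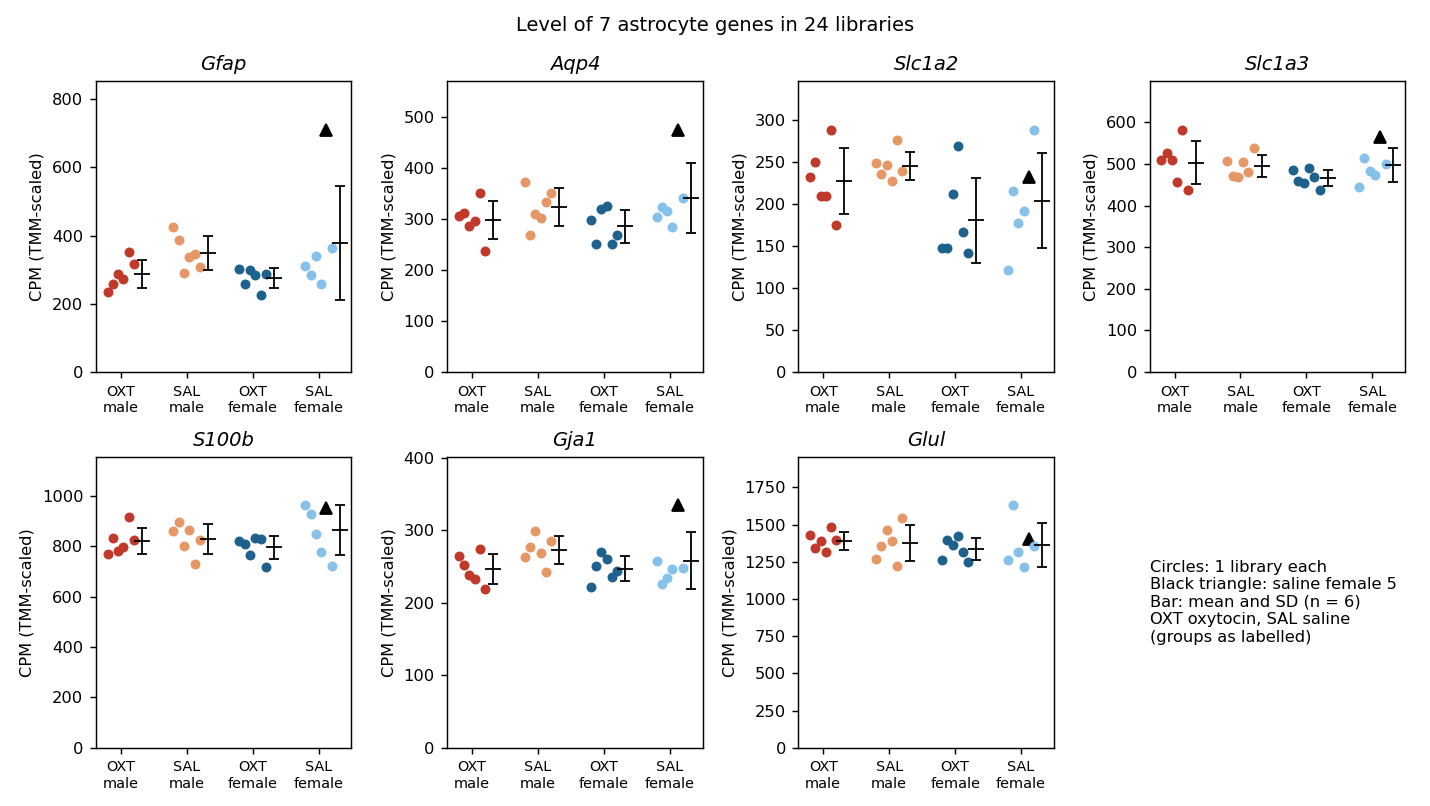
TMM-scaled CPM of the 7 genes by labelled group (1 point per library, 6 per group), with mean and SD to the right of each group and saline female 5 as a black triangle. The groups overlap in every panel, and the triangle lies above all other libraries for Gfap (711 CPM), Aqp4 (475 CPM) and Gja1 (335 CPM).

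The series asks whether exposure to oxytocin at birth changed expression in the offspring, and none of the 7 genes passed that test in either labelled sex. Differences were tested with edgeR's quasi-likelihood test over all 14930 genes, and a gene was called where its p, adjusted by Benjamini and Hochberg's method, did not exceed 0.05. In labelled males 0 of 7 members were called, against 0.161% of all tested genes, and 0 of 7 had an unadjusted p under 0.05, against 11.2%. The lowest adjusted p was that of Gja1, at 0.504, with a log2 fold change of −0.14 (SE 0.08). Gfap stood at −0.28 on the same scale (SE 0.18, edgeR adjusted p = 0.623), Aqp4 at −0.12 and Slc1a2 at −0.11. S100b, Glul and Slc1a3 were near 0, at −0.02, 0.02 and 0.02. For no member did the oxytocin and saline males separate (0 of 7, against 1.19% of tested genes). The spread was estimated over all 4 groups, so saline female 5 enters this test too. Without it the edgeR adjusted p was 0.289 for Gfap and 0.298 for Gja1, at fold changes of −0.28 and −0.14. An unadjusted p under 0.05 was then reached by 2 of 7 members, and also by 2 with the 12 labelled male libraries alone. The share of all genes was not taken in these 2 fits.

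In labelled females 0 of 7 members were called, against 0.00670% of all tested genes, and all 7 fitted values were below 0. Gfap and Aqp4 had an unadjusted p under 0.05 (2 of 7, against 12.4% of tested genes). That count was 0 of 7 without saline female 5, without oxytocin female 5, and with the 12 labelled female libraries alone. It was 3 of 7 without saline female 1, 4 or 6. In these fits the share of all genes was not taken. The difference for Gfap was −0.45 on the log2 scale (SE 0.18, edgeR adjusted p = 0.333), or 0.730-fold with a 95% interval of 0.559 to 0.953. That for Aqp4 was −0.25 (SE 0.11, edgeR adjusted p = 0.365), or 0.839-fold (0.714 to 0.985). Without saline female 5 these values shrank to −0.18 for Gfap (edgeR adjusted p = 0.517) and −0.14 for Aqp4 (adjusted p = 0.540), and that of Gja1 turned from −0.06 to 0.03. Among the others, S100b was at −0.12, Slc1a2 at −0.17, Slc1a3 at −0.09 and Glul at −0.03. No member separated the oxytocin and saline females (0 of 7, against 0.730% of tested genes).

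Averaged over the labelled sexes, 0 of 7 members were called, against 0.362% of tested genes, and 2 of 7 had an unadjusted p under 0.05, against 16.0%. All 7 fitted values were below 0 over all 24 libraries, with a median of −0.10, where the median of all tested genes was 0.00. Several members vary together between libraries, so these 7 directions are not independent of each other. Gfap had the largest of the 7 differences, −0.37 on the log2 scale (SE 0.13, edgeR adjusted p = 0.169), or 0.775-fold with a 95% interval of 0.642 to 0.936. Without saline female 5 it was −0.23 (edgeR adjusted p = 0.162). Aqp4 followed at −0.18 (SE 0.08, edgeR adjusted p = 0.251), and at −0.13 without that library. Gja1 went from −0.10 to −0.06 when it was left out. The 95% intervals of the fold for the uptake genes were 0.921 to 1.04 for Slc1a3, 0.938 to 1.06 for Glul, and 0.758 to 1.08 for the more variable Slc1a2. DESeq2 and limma with sample weights also called 0 of 7 members in each of these 3 comparisons. Over all genes DESeq2 called 0.727% in labelled males, 0.191% in labelled females and 1.62% on average, and limma 0.810%, 0.00670% and 1.41%. Here and below, DESeq2 shares are of 21995 genes, with no filter on low counts, and limma shares are of the 14930 filtered genes. The shares of the 2 tools are therefore not on the same set of genes. At an unadjusted p under 0.05 DESeq2 had 0 of 7 members in labelled males (8.02% of all genes), 2 in labelled females (8.82%) and 2 on average (11.4%). By limma these were 1 of 7 (13.9%), 0 (11.9%) and 2 (18.1%).

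**Figure D3:**
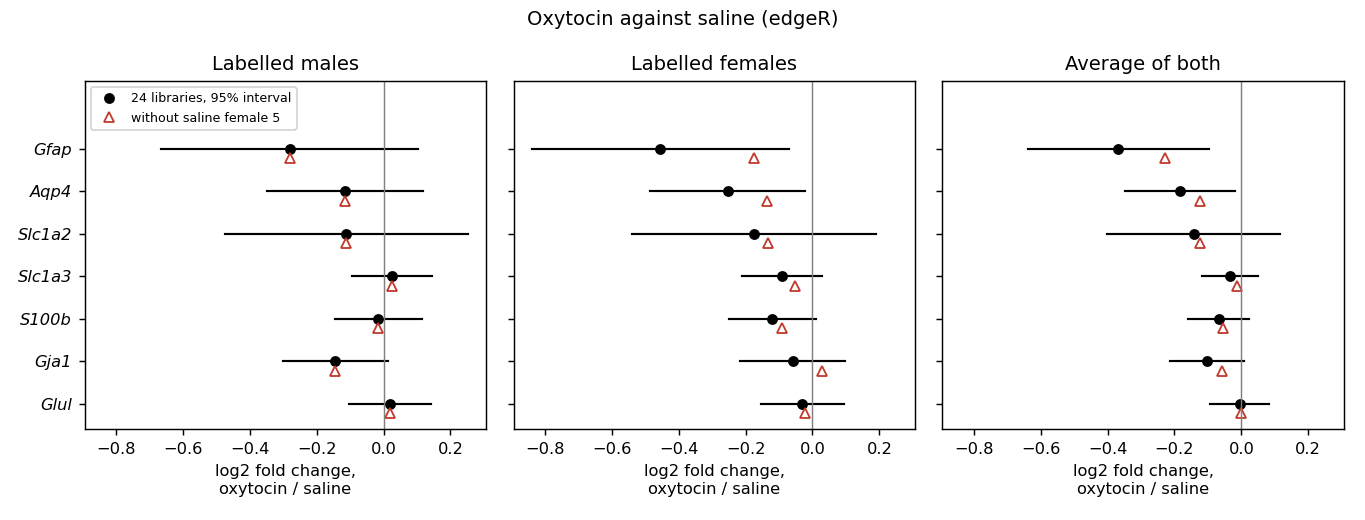
Log2 fold change of oxytocin over saline for each gene by labelled sex and averaged over the sexes, as edgeR fitted it, with 95% intervals (black) and the value without saline female 5 (open triangles). Gfap lies farthest from 0 on average, at −0.37, and moves to −0.23 without that library, while Slc1a3 and Glul stay near 0.

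The treatment difference was then compared between labelled males and females by an interaction term. None of the 7 was called (0 of 7, against 0% of tested genes by edgeR), and 0 of 7 had an unadjusted p under 0.05, against 7.29%. DESeq2 and limma called 0 of 7 as well, against 0.00909% and 0% of all genes. At an unadjusted p under 0.05 each had 0 of 7, against 5.39% and 8.08%. The smallest adjusted p by edgeR was 0.798, that of Slc1a3, with a difference of 0.12 on the log2 scale (SE 0.08). For Gfap the difference was 0.17 (SE 0.26, edgeR adjusted p = 0.918), and −0.10 without saline female 5.

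Between labelled sexes, averaged over treatment, 0 of 7 were called, against 0.228% of tested genes, and 1 of 7 had an unadjusted p under 0.05, against 9.99%. That gene was Slc1a2. It was at 237 ± 30.3 CPM in labelled males (range 175 to 289) and 192 ± 52.4 CPM in labelled females (range 121 to 288; SD, n = 12 each). The log2 fold change was 0.30 (SE 0.12, edgeR adjusted p = 0.406), or 1.23-fold with a 95% interval of 1.03 to 1.47. The within-group SD of its log2 CPM was 0.19 in labelled males and 0.40 in labelled females, a difference that was not tested. For the other 6 genes the difference between labelled sexes was between −0.03 and 0.05 on the log2 scale. Without saline female 5 that of Gfap was 0.11 and that of Gja1 0.08. DESeq2 and limma with sample weights called 0 of 7 here too, against 0.464% and 0.462% of all genes. Each had 1 of 7 at an unadjusted p under 0.05, against 7.18% and 13.6%.

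Whether the 7 genes moved together from animal to animal was examined within groups. Aqp4 with Slc1a3, and Slc1a2 with Slc1a3, did so past the threshold. Log2 CPM was correlated after removal of each group's mean, over 24 libraries, for 21 pairs. Of these, 19 had a positive Pearson r, the median was 0.35, and the median r of a member with any tested gene was 0.02. By a two-sided permutation test within groups, 2 of 21 pairs passed an adjusted p of 0.05. With each of the 7 genes scaled to equal variance, their first shared component held 47.9% of the within-group variance, and 38.8% without saline female 5. With that library left out, 17 of 21 pairs had a positive r and their median was 0.29.

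Aqp4 and Slc1a3 were the most closely tied pair, the water channel with the GLAST transporter. Their r was 0.75 and Spearman's rho 0.70 (n = 24, permutation p = 0.0001 and 0.00043, adjusted p = 0.00210 and 0.00514 over 21 pairs). The r was 0.88 in oxytocin males, 0.63 in saline males, 0.45 in oxytocin females and 0.87 in saline females. It was 0.57 without the 2 libraries farthest from the median of Aqp4, and 0.68 without saline female 5 (permutation, adjusted p = 0.0122). Among the 14929 other tested genes, Slc1a3 ranked 13 by r with Aqp4, and Aqp4 ranked 10 by r with Slc1a3. Among oxytocin males, library 6 was the lowest and library 5 the highest for both genes. Relative to the group mean on the log2 scale they stood at −0.32 and 0.25 for Aqp4 and at −0.20 and 0.22 for Slc1a3.

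The 2 glutamate transporters were the other pair that passed. Slc1a2 and Slc1a3 had r = 0.59 and rho = 0.55 (n = 24, permutation p = 0.0041 and 0.00969, adjusted p = 0.0430 and 0.0678). By rank the pair therefore missed the threshold. The r was 0.94 in oxytocin males, 0.46 in oxytocin females, 0.71 in saline females and −0.27 in saline males. Without the 2 libraries farthest from the median of Slc1a2 it was 0.50. Leaving out 1 library at a time gave r of 0.50 to 0.64, and in 13 of 24 cases the adjusted permutation p was above 0.05, up to 0.155 without oxytocin male 5. Those 13 libraries were oxytocin males 1 to 6, oxytocin females 2, 4, 5 and 6, and saline females 1, 3 and 4. Aqp4 and Slc1a2 had r = 0.59 (permutation, adjusted p = 0.0685) and rho = 0.69 (adjusted p = 0.00514). Without saline female 5 their r was 0.62 (permutation, adjusted p = 0.0122), so that Aqp4, Slc1a2 and Slc1a3 then passed in all 3 of their pairs.

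The r of Gfap with Aqp4, Gja1 and Slc1a3 was smaller when saline female 5 was left out. Over 24 libraries its r was 0.63 with Aqp4 (rho 0.40, permutation, adjusted p = 0.0685), 0.50 with Gja1 (rho 0.18, adjusted p = 0.273) and 0.39 with Slc1a3 (rho 0.19, adjusted p = 0.273). Without that library r fell to 0.30, −0.10 and 0.09. By group, r of Gfap with Aqp4 was 0.98 in saline females, 0.73 in oxytocin females, 0.10 in saline males and near 0 (−0.000895) in oxytocin males. Aqp4 with Gja1 went from 0.61 to 0.34 without that library.

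S100b and Glul had the lowest r with the mean of the 7 standardised members, 0.48 and 0.56. The r of S100b with the other members ran from −0.17 (Slc1a2) to 0.35 (Glul), and that of Glul from −0.01 (Gfap) to 0.45 (Slc1a3), with an adjusted p of at least 0.105 for each. Slc1a3 and Glul, which take up glutamate and convert it, had r = 0.45 and rho = 0.45 (n = 24, permutation p = 0.0299, adjusted p = 0.105), with r from 0.31 to 0.60 over the 4 groups and 0.45 without saline female 5. In groups of 6 alone, 0 of 84 relations passed an adjusted p of 0.05 by exact permutation, with 11 of 84 at an unadjusted p under 0.05.

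**Figure D4:**
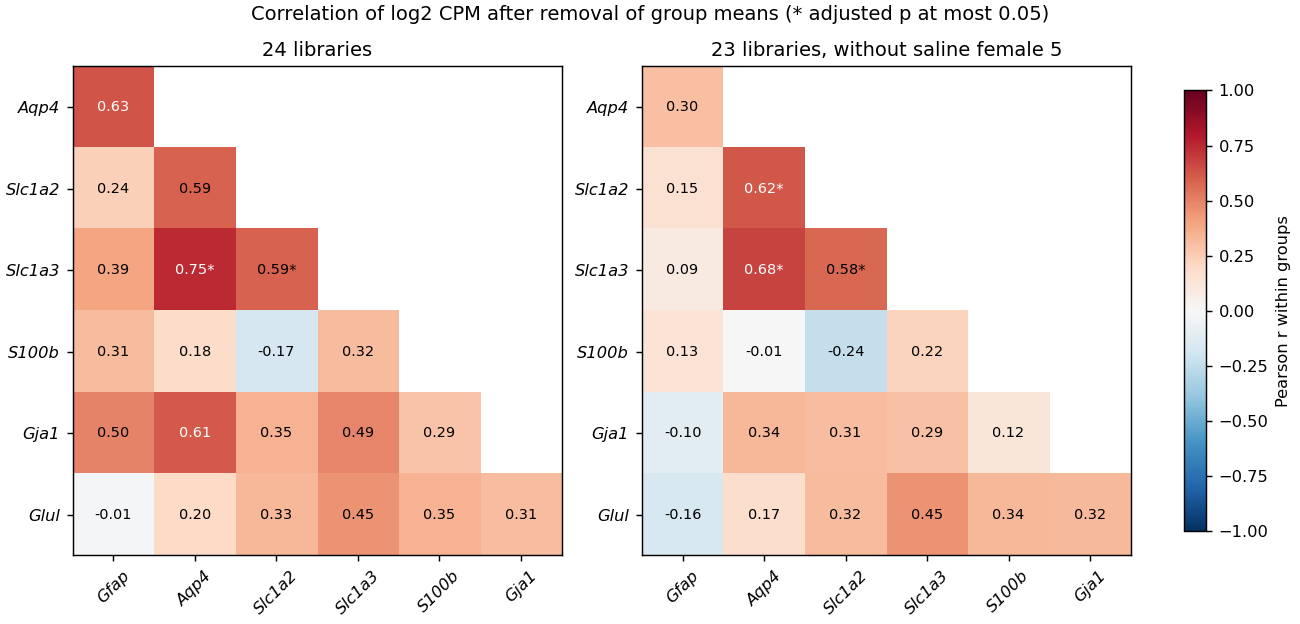
Pearson r of the 21 pairs over log2 CPM with group means removed, in 24 libraries (left) and without saline female 5 (right), where an asterisk marks an adjusted permutation p of at most 0.05. The block of Aqp4, Slc1a2 and Slc1a3 keeps r of 0.58 to 0.68 on the right, while Gfap drops from 0.63 to 0.30 with Aqp4 and from 0.50 to −0.10 with Gja1.

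**Figure D5:**
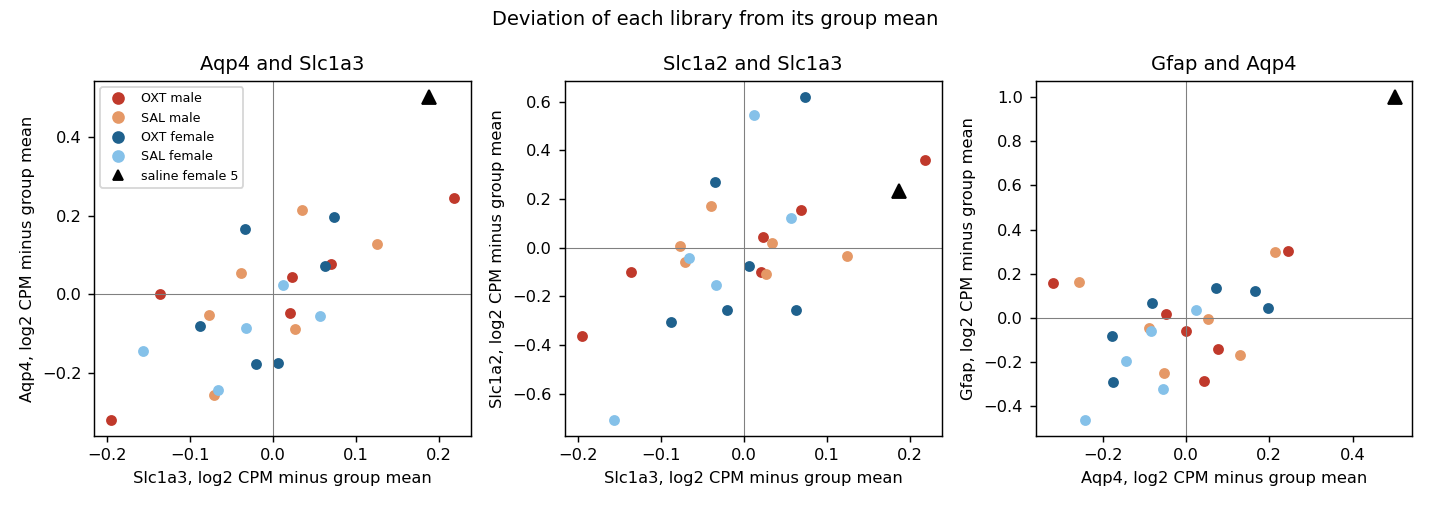
Each library's deviation from its group mean (log2 CPM) for Aqp4 and Slc1a3, Slc1a2 and Slc1a3, and Gfap and Aqp4, coloured by labelled group. Saline female 5 (black triangle) stands at 0.50 for Aqp4 and 0.19 for Slc1a3 in the first panel and lies alone at the far end for Gfap in the last.

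Among all tested genes, Slc1a2 had more companions at a high positive r than the other members, a count that was not tested. It had r of at least 0.8 with 148 other tested genes (0.991%), where Gfap, Aqp4 and S100b had 3 each, Slc1a3 had 1, and Gja1 and Glul had 0. Its highest r was 0.94, against 0.59 with Slc1a3, so 6.51% of tested genes followed Slc1a2 more closely than its fellow transporter did. At r of −0.8 or lower S100b had the most, with 14 genes, against 7 for Slc1a2, 6 for Aqp4, 2 for Gfap, 1 for Slc1a3 and 0 for Gja1 and Glul. Such counts were not taken for genes other than the members. These are descriptions over 24 libraries, in which all genes of a library share its depth. The genes most like the mean of the 7 standardised members were ENSRNOG00000032871 (r = 0.89, n = 24) and ENSRNOG00000010997 (r = 0.88), which no table used here pairs with a name. They were ahead of Slc1a3 and Aqp4 themselves (each r = 0.84 with a mean that includes them).

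The promoters of Aqp4, Slc1a3 and Slc1a2, the genes of the 2 pairs that passed over 24 libraries, are shown so that the sequence before each start can be read beside these values. Each is the RefSeq window of assembly GRCr8, from 250 bases before to 50 after the first listed start, read 5′ to 3′ on the gene's strand. Aqp4 is at chr18:6798793-6799092 (minus strand), Slc1a3 at chr2:59557759-59558058 (minus strand) and Slc1a2 at chr3:109459859-109460158 (plus strand). Capitals mark matches, on either strand, to the motifs searched: the SOX core ACAAAG and its form ACAATG, the NFI motif TTGGCA, the AP-1 site TGANTCA, the box CCAAT, the TATA box TATAAA and the GC box GGGCGG.
Aqp4: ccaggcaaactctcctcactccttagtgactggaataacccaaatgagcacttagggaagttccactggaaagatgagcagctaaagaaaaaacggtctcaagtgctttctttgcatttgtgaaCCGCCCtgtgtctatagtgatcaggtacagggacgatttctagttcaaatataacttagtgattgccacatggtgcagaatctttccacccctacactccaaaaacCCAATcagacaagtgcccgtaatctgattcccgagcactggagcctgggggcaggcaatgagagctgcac
Slc1a3: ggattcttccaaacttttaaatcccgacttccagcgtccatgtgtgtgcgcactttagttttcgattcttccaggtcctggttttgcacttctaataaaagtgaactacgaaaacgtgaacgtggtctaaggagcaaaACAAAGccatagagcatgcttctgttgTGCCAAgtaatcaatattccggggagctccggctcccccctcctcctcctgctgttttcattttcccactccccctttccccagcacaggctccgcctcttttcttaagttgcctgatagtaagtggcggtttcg
Slc1a2: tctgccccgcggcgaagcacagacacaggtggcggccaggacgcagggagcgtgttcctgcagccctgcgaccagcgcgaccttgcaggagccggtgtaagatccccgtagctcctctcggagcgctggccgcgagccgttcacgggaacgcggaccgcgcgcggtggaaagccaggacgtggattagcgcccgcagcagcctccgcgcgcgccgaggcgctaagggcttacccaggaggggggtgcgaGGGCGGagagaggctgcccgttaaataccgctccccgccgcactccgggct

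No motif of those searched was in all 3 windows. Slc1a3 held a SOX core that begins 112 bases upstream of the start and, on the other strand, an NFI motif 85 bases upstream. SOX9 and NFIA, which bind such sites, are factors of astrocyte development. Aqp4 held a GC box on the other strand 126 bases upstream and CCAAT 20 bases upstream, and Slc1a2 held a GC box that begins 1 base upstream. The window of the second listed start of Aqp4, not shown, held a SOX core 100 bases upstream. No 2 matches overlapped in these windows. Such matches are common: of 33469 windows of the same length, 18.8% held ACAAAG, 13.2% ACAATG, 14.0% the NFI motif, 7.33% the AP-1 site, 37.5% CCAAT, 14.2% TATAAA and 33.1% the GC box. The windows also differed in base composition, with 47.3% G and C in Aqp4, 48.3% in Slc1a3 and 71.0% in Slc1a2, where the mean of all windows was 52.8%. Elsewhere among the members, the window of Gja1 held an AP-1 site that begins 58 bases upstream, and the first window of Gfap held no match to any of these motifs. NFI motifs also lay in the window of S100b, 37 bases upstream, and in the second window of Glul, 34 bases upstream.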

How the data were processed

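Poly(A)-selected RNA from the medial prefrontal cortex of both hemispheres was sequenced, per the labels' protocols, in 24 libraries. The submitters' processing notes name bcl2fastq, DRAGEN and the assembly Rnor_6.0. Tool versions, gene annotation and strandedness were not given in the sources used here. Per the file headers, each deposited table lists, per gene, an estimated count of reads and a TPM beside the gene's length and effective length. The estimated counts deposited by the authors were rounded to whole numbers (a change of at most 0.5). The TPM deposited by the authors served only to compare levels between genes, and as log2 of TPM + 1 in an alternative.

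Groups come from the titles, sex and treatment in the labels. The 7 members and all lists and tests were chosen with earlier results of these data known. Member names come with the selection rule. Of the 32883 IDs, 0 matched the reference table (GRCr8, 47357 rows), so the lists fixed by symbol (other astrocyte genes, the glutamate and glutamine cycle, markers of other cells) were not tested. RefSeq promoters were matched by symbol for 7 of 7 members (12 windows). Named genes are the 7 members and the 2 genes most like their mean.

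edgeR 4.0.16 in R 4.3.3 was fitted to all libraries with 1 mean per group, TMM scaling, filterByExpr (minimum count 10, minimum total 15; 14930 genes kept, 17953 not) and robust quasi-likelihood. The common biological coefficient of variation was 10.5%. p-values were adjusted over all tested genes of a contrast. The SE of a log2 fold change was derived as its size over the square root of the test's F statistic. The 95% intervals were that SE times a quantile of the t distribution to either side. Correlations used log2 CPM (prior count 2) with group means removed and 100000 permutations within groups, or all exact pairings in groups of 6 (numpy 2.4.6). Both procedures were tested on simulated data that held no outlying library and no shared litter, so those features were not covered. No libraries of a group agreed within sampling noise (lowest chi-square per degree of freedom 4.92). A count of 0 would allow 3 reads, 0.123 to 0.189 CPM, for counting error only, and no member was near it. Alternatives were RLE scaling, other filters, length offsets, the replicate number as a block, DESeq2 1.42.0, limma 3.58.1 with sample weights, 1 labelled sex alone, and each library left out.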

Additional observations from a re-analysis of the deposited data

Results flagged for a closer look

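In 28 sets of 6 libraries (7 genes in 4 groups), 1 library lay beyond Dixon's 95% limit in 3, where chance gives about 1 in 20, or 1.4 sets. All 3 were saline female 5. It stood at 711 CPM for Gfap, with the next saline female at 365 CPM. For Aqp4 it stood at 475 CPM, with the next at 341 CPM. For Gja1 it stood at 335 CPM, with the next at 258 CPM. Its depth, 18.5 M reads, was within the range of the others. The 3 values come from 1 library and are not independent of each other. No interaction of treatment and labelled sex passed the test for any member (edgeR, 0 of 7).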

How the results depend on the processing

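No member was called (0 of 7) in any of the 5 comparisons under any alternative that was run, each left-out library included. Calls over all genes moved more. In labelled males edgeR called 24 genes, against 9 with the replicate block, 116 with that labelled sex alone, 160 by DESeq2, 121 by limma, 106 when saline female 2 was left out, and 0 when saline male 1, among others, was left out. In labelled females the count of 1 became 42 by DESeq2, 0 with that sex alone and up to 6 without saline female 6. The average of 54 became 356 by DESeq2, 211 by limma and 9 when saline male 2 was left out and 334 when saline female 2 was. The interaction count of 0 became 1 with the replicate block and 2 by DESeq2. Between labelled sexes 34 became 102 by DESeq2, 69 by limma and up to 60 without saline female 6. Whether replicate numbers in the titles pair the libraries cannot be settled here, since no litter or batch was named. The correlation of deviations between same-numbered libraries was −0.11 to 0.18 (median 0.03), over 0.1 in 3 of 36. Between libraries of other numbers the median was −0.01. With limma and sample weights the log2 fold change of Glul averaged over labelled sexes turned to 0.0049, the interaction of Gfap to −0.0057, and the difference between labelled sexes to 0.035 for Gfap, 0.039 for Aqp4 and 2.36e-05 for S100b. The causes were not tested. Leaving out 1 library at a time also turned small values. In labelled males the ranges were −0.022 to 0.061 for Slc1a3, −0.0505 to 0.00741 for S100b and −0.012 to 0.055 for Glul. In labelled females they were −0.095 to 0.029 for Gja1 and −0.061 to 0.028 for Glul, and for the average −0.021 to 0.023 for Glul. For the interaction they were −0.10 to 0.26 for Gfap, −0.060 to 0.21 for Slc1a2 and −0.0081 to 0.086 for Glul. Between labelled sexes they were −0.074 to 0.11 for Gfap, −0.034 to 0.052 for Aqp4 and −0.032 to 0.0084 for S100b. None of these was past the threshold.

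Of the 21 pairs, 2 were correlated, against 5 with log2 TPM, 6 with the replicate block removed, 6 with the library total removed, and 1 to 4 without 1 library. Where residuals of a block or of library totals were permuted, the test is approximate. Aqp4 with Slc1a3 passed in every one of these fits, with r of 0.68 to 0.81. The order of the 7 levels was the same in counts per effective length with TMM scaling (7 of 7 ranks). At 2376 reads or more per member and library, counting error is small beside the spread between animals, and 6 libraries per group limit what could be detected.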

Other observations

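In oxytocin males, Aqp4, Slc1a2, Slc1a3 and Gja1 had high r in all 6 pairs: r was 0.97 for Aqp4 with Slc1a2, 0.94 for Slc1a2 with Slc1a3, 0.93 for Slc1a2 with Gja1, 0.91 for Slc1a3 with Gja1, 0.90 for Aqp4 with Gja1 and 0.88 for Aqp4 with Slc1a3 (n = 6, exact permutation, adjusted p = 0.175 to 0.220 over 84 relations). Oxytocin male 5 was high and oxytocin male 6 low for each of the 4. In saline males r of the same pairs ran from −0.60 (Slc1a2 with Gja1) to 0.63 (Aqp4 with Slc1a3), with 3 of 6 below 0. In oxytocin females they ran from −0.23 (Slc1a3 with Gja1) to 0.75 (Aqp4 with Slc1a2), and in saline females from 0.14 (Slc1a2 with Gja1) to 0.87 (Aqp4 with Slc1a3). These genes were picked after their values were seen, and the difference between groups was not tested.

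The standardised mean of the 7 genes within groups was highest in saline female 5 (1.99) and oxytocin male 5 (1.38) and lowest in saline female 4 (−1.03). Its r with the log2 library total was 0.11 (n = 24), and its r with the first component of all genes was 0.49 in size, a component that held 8.71% of the variance.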
